A study of Homo sapiens with 33 samples.

Results

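The MARCHF6 tiles are the oligonucleotides of the PUM2 pool whose name before the colon is MARCHF6. There were 123 of them among the 1599 tiles of the pool, and each was present with 22 barcodes, which gave 2706 of the 35178 lines of the count table. The name of a tile gives its source RNA and a number. The number runs from 1 to 123 here, and the sequence of a tile, its place in the MARCHF6 mRNA and the overlap of neighbouring tiles were not used here, so no sequence or genomic position is printed. The symbol matched 1 gene in the reference table (NCBI gene 10299, Ensembl ENSG00000145495.17).

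MARCHF6 encodes a RING-type E3 ubiquitin ligase of the endoplasmic reticulum membrane, the human counterpart of yeast Doa10, which marks proteins of that membrane and of sterol synthesis for degradation. PUM2 is a Pumilio-family RNA-binding protein. Its family reads short elements that begin with UGUA, most often in the 3′ untranslated region of mRNAs, and is known for bringing in deadenylases and lowering the stability and translation of the bound mRNA. A tile that carries a site for the precipitated protein would be expected at a higher share of the reads in the precipitate than in Input.

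The pool was introduced by transfection into HEK293T, a line of human embryonic kidney cells, with no protein overexpressed. The cells were harvested after 48 hours and fixed for 10 minutes in 0.1% formaldehyde. RNA recovered with an antibody against PUM2 (3 libraries, called IP A, B and C) was compared with RNA of the lysate before precipitation (3 libraries, called Input A, B and C), each read by amplicon sequencing of cDNA. Both groups came from the same line and pool, and a precipitate with a control antibody was not analysed here. Whether the 3 libraries of a group stem from separate cultures is not stated, and a p-value here covers only library-to-library spread, possibly of technical origin.

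The IP libraries held 15986799 to 17727926 reads and the Input libraries 29433144 to 35092298. MARCHF6 tiles took 6.10%, 6.03% and 6.35% of the reads in IP A, B and C, against 5.85%, 5.71% and 5.76% in Input A, B and C. Tiles 40 and 41 made up that excess. Without them the share was 4.66%, 4.64% and 4.97% in IP and 5.77%, 5.64% and 5.69% in Input, so by raw share the remaining MARCHF6 tiles together were lower in every IP library than in every Input library. After TMM scaling these remaining tiles summed to 50726, 51127 and 52851 CPM in IP A, B and C and to 53548, 52703 and 51369 CPM in Input A, B and C, and the groups overlapped.

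A handful of narrow stretches stood above the rest of the profile. Of 116 tested tiles, 65 lay within 0.5 of 0 on the log2 scale, and the share of the pool in that range was not counted. Levels are given in CPM, the counts scaled to a common library size with TMM factors, and a fold change is the IP level over the Input level fitted by the edgeR quasi-likelihood test. The other 7 of the 123 tiles had too few reads to be tested. At an adjusted p under 0.05 over all 1563 tested tiles of the pool, 11 MARCHF6 tiles were called higher in IP (9.48%) and 4 lower (3.45%). In the whole pool 14.1% of the tested tiles were called higher, 4.16% lower and 18.2% in either direction, so the shares of MARCHF6 lie near or below the background. By share of tiles called higher, MARCHF6 was at place 17 of the 23 source RNAs.

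The 11 tiles called higher were MARCHF6:27, 40, 41, 45, 46, 75, 90, 95, 96, 119 and 120. They fell into 7 runs of consecutive numbers, none longer than 2 tiles, and 8 of the 11 stood next to another called tile. No tile numbered below 27 was called higher in this fit. In alternative fits MARCHF6:2 and MARCHF6:3 were called higher by DESeq2 and without IP C. MARCHF6:3 was also called without the most-read barcode of each tile, and MARCHF6:4 without IP A. The 4 tiles called lower, MARCHF6:7, 34, 100 and 118, were each alone, and MARCHF6:118 lay directly beside MARCHF6:119, which went the other way. The 11 tiles held 35.9%, 34.2% and 32.3% of the MARCHF6 reads in IP A, B and C, against 6.43%, 6.24% and 6.73% in Input A, B and C.

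The highest level in the precipitate belonged to MARCHF6:40. It stood at 12782, 13229 and 12122 CPM in IP A, B and C, against 652, 571 and 564 CPM in Input A, B and C. The 3 IP libraries were within a narrow band far above every Input library. The tile was 21.3-fold higher (log2 fold change 4.42 ± 0.12, SE, n = 3 against 3, edgeR adjusted p = 1.23e-07), a value that 4 tested tiles of the pool shared as the smallest. By mean level it was the tile at place 2 of 1599 in IP and at place 526 in Input. It alone took 19.2%, 19.9% and 17.9% of the MARCHF6 reads in IP, against 1.20%, 1.07% and 1.08% in Input.

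Its neighbour MARCHF6:41 was scarce in Input and had the largest fold change of the MARCHF6 tiles. It stood at 2908, 2145 and 2590 CPM in IP A, B and C, against 43.1, 34.2 and 55.9 CPM in Input A, B and C. Each IP library was 48.3 to 65.5 times the Input mean. The fitted value was 57.4-fold (log2 fold change 5.84 ± 0.24, edgeR adjusted p = 1.21e-06), at place 8 of the tested tiles of the pool by fold change. After these, the MARCHF6 tiles at the highest IP levels were MARCHF6:31, 30 and 11, which were also abundant in Input. MARCHF6:31, the tile with the most Input reads, stood at 2390 ± 226 CPM in IP and 2350 ± 147 CPM in Input (SD, n = 3 each), with overlapping groups.

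The tiles on either side of 40 and 41 were far lower in IP. MARCHF6:39 stood at 367, 365 and 694 CPM in IP and at 692, 678 and 627 CPM in Input, and the groups overlapped (log2 fold change -0.48 ± 0.26, edgeR adjusted p = 0.268), although without IP C the tile was called lower (-0.82, adjusted p = 0.00552). On the other side MARCHF6:42 stood at 386, 68.2 and 153 CPM in IP and at 69.3, 50.8 and 94.9 CPM in Input. Only IP A and IP C of this tile lay above all Input libraries, and the difference did not pass (1.50 ± 0.61, adjusted p = 0.144). It was called higher by DESeq2 (1.52, adjusted p = 0.0179) and by edgeR without IP B (1.91, adjusted p = 0.0397), and without IP A it was 0.63 (adjusted p = 0.419). MARCHF6:43 was at -0.12 ± 0.14. The window of tiles 40 to 44 was the highest of 100 windows of 5 consecutive tested tiles, with a mean log2 difference of 2.28 (SD 0.27 over the IP libraries), although only tiles 40 and 41 in it were called.

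The barcodes of a tile carry the same source stretch, so they are repeated readings of 1 RNA within a library and not replicates of the condition. For MARCHF6:40, 21 barcodes had at least 30 reads over the 6 libraries, all 21 had a higher mean CPM in IP, and their log2 differences ran from 3.92 to 5.38. All 21 were called higher in a test of single barcodes over the pool. For MARCHF6:41 all 22 barcodes were higher, by 4.42 to 9.23 on the log2 scale, and 10 of the 21 tested passed. The barcode of most reads held 11.4% of the IP reads of MARCHF6:40 and 14.9% of those of MARCHF6:41, so no single barcode carried either tile. Leaving that barcode out gave log2 fold changes of 4.49 and 5.89.

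The number of barcodes with a read gives a second view of the same libraries. MARCHF6:41 was read with 22, 21 and 21 of its 22 barcodes in IP A, B and C, against 19, 18 and 18 in Input A, B and C, although the IP libraries were less deep. It was the 1 tested MARCHF6 tile (0.862%) with more barcodes read in every IP than in every Input library, and 5 tiles of the pool (0.320%) were so. The usual pattern was the reverse, with fewer barcodes read in every IP library for 109 of the 116 tiles (94.0%, against 87.7% of the pool). Barcodes without a read made up 53.1% to 58.7% of the MARCHF6 barcodes in IP and 11.7% to 12.3% in Input. Over the whole pool these shares were 46.8% to 51.5% in IP and 9.16% to 9.40% in Input. All barcodes were counted in these shares, also those of 4 MARCHF6 tiles that had no read in any library. The part of such tiles in the difference from the pool was not tested.

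Tests of single barcodes made that contrast plain. Of 2236 tested MARCHF6 barcodes, 40 were called higher (1.79%, against 1.99% of the 30210 tested in the pool) and 487 lower (21.8%, against 18.1%). All 40 higher barcodes belonged to 7 of the 11 tiles called higher, whose counts are sums over these same barcodes. MARCHF6:40 held 21 of the 40 and MARCHF6:41 held 10. The 487 lower ones were spread over 86 tiles, 10 of them within tiles called higher, and 461 of them (94.7%) had no read in any IP library. The IP libraries were also the shallower ones, and the part of depth in these counts was not tested.

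A second pair, MARCHF6:95 and 96, was raised more moderately, and MARCHF6:96 very evenly. MARCHF6:96 stood at 1489, 1367 and 1407 CPM in IP A, B and C, against 304, 297 and 309 CPM in Input A, B and C. Both groups were tight and far apart (4.68-fold, log2 fold change 2.23 ± 0.12, edgeR adjusted p = 4.60e-06), and all 22 barcodes were higher in IP. MARCHF6:95 stood at 983, 1029 and 1371 CPM in IP, against 313, 291 and 320 CPM in Input, or 3.66-fold higher (1.87 ± 0.17, adjusted p = 0.000101), with 19 of 22 barcodes higher. The flanking tiles overlapped between groups, MARCHF6:94 at 0.36 ± 0.38 and MARCHF6:97 at -0.11 ± 0.44. The window of tiles 93 to 97 was the highest that did not share a tile with 40 to 44 (0.66, SD 0.12 over the IP libraries).

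MARCHF6:90 rose without a neighbour that edgeR called on all 6 libraries. It stood at 459, 640 and 568 CPM in IP A, B and C, against 98.1, 101 and 84.0 CPM in Input A, B and C, with every IP library at least 4.86 times the Input mean. The fitted change was 5.89-fold (2.56 ± 0.22, edgeR adjusted p = 6.40e-05), and 19 of 22 barcodes were higher. Beside it MARCHF6:89 did not overlap between groups either, at 120, 245 and 210 CPM in IP and 86.2, 79.7 and 100 CPM in Input, but missed the threshold (1.11 ± 0.36, adjusted p = 0.0684). It was called higher by DESeq2 (1.13, adjusted p = 0.00609) and by edgeR without IP A (1.37, adjusted p = 0.00947), and in the other 5 fits that leave out a library its adjusted p was 0.0884 to 0.257. MARCHF6:91 was at -0.18 ± 0.51. The window of tiles 86 to 90 was the next highest that shares no tile with either (0.61, SD 0.33).

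At the high end of the numbering, MARCHF6:118, 119 and 120 changed direction from a tile to the next. MARCHF6:118 was lower in IP, at 469, 453 and 570 CPM, against 936, 867 and 946 CPM in Input (-0.88 ± 0.15, edgeR adjusted p = 0.00343), with 3 of 22 barcodes higher. MARCHF6:119 was higher, at 1495, 1482 and 1256 CPM in IP, against 766, 686 and 772 CPM in Input (0.93 ± 0.13, adjusted p = 0.000947), with 17 of 22 barcodes higher. MARCHF6:120 was higher too, at 404, 510 and 384 CPM in IP, against 158, 168 and 165 CPM in Input (2.65-fold, 1.40 ± 0.21, adjusted p = 0.00173). None of the 3 tiles overlapped between groups, and each was still called after any 1 of the 6 libraries was left out. In MARCHF6:120 only 8 to 10 barcodes were read in an IP library, against 22 in each Input library. Of its 22 barcodes 14 were higher in IP. In the test of single barcodes none of them was called higher and 6 were called lower.

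MARCHF6:45 and 46 formed another pair, in which the IP libraries were more scattered. MARCHF6:46 stood at 576, 482 and 230 CPM in IP A, B and C, against 108, 107 and 92.0 CPM in Input A, B and C (4.18-fold, 2.06 ± 0.35, edgeR adjusted p = 0.00381). MARCHF6:45 stood at 973, 769 and 506 CPM in IP, against 418, 408 and 369 CPM in Input (1.88-fold, 0.91 ± 0.24, adjusted p = 0.0335). In both tiles IP C was lowest, yet above every Input library. Each tile had 21 barcodes with at least 30 reads, of which 15 were higher in MARCHF6:45 and 16 in MARCHF6:46. None was called higher singly, and 1 in each tile was called lower. MARCHF6:46 was read with 10, 11 and 9 barcodes in IP A, B and C, against 20, 21 and 19 in Input A, B and C. The call of MARCHF6:45 was lost without IP A, without IP B and without any 1 Input library (adjusted p = 0.0664 to 0.129), and with library size alone as the scaling (adjusted p = 0.0666).

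MARCHF6:27 and MARCHF6:75 were called higher as single tiles. MARCHF6:27 stood at 1607, 975 and 1335 CPM in IP A, B and C, against 610, 648 and 741 CPM in Input A, B and C (1.96-fold, 0.97 ± 0.19, edgeR adjusted p = 0.00881), with 15 of 22 barcodes higher. MARCHF6:75 stood at 160, 115 and 55.7 CPM in IP, against 15.2, 16.8 and 24.9 CPM in Input (5.80-fold, 2.54 ± 0.63, adjusted p = 0.0264). Its IP reads came from 4, 4 and 2 barcodes, and only 8 of its 18 barcodes with at least 30 reads were higher. The call was lost without any 1 Input library (adjusted p = 0.0738 to 0.125) and with the column letter as a replicate block (adjusted p = 0.0842).

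The log2 fold changes of the 4 tiles called lower ran from -1.01 to -0.60. MARCHF6:100 stood at 226, 208 and 300 CPM in IP A, B and C, against 557, 500 and 415 CPM in Input A, B and C, a log2 fold change of -1.01 ± 0.22 (edgeR adjusted p = 0.0144). MARCHF6:34 stood at 386, 260 and 226 CPM in IP, against 528, 536 and 554 CPM in Input (-0.89 ± 0.23, adjusted p = 0.0309). MARCHF6:7 stood at 431, 332 and 383 CPM in IP, against 567, 579 and 592 CPM in Input (-0.60 ± 0.16, adjusted p = 0.0375). The groups of these tiles did not overlap, but their calls depended on which libraries were used. Leaving out 1 IP library gave 113 to 146 tiles called lower in the whole pool. Without 1 Input library the fold changes stayed at -1.11 to -0.90 for MARCHF6:100, -0.91 to -0.87 for MARCHF6:34 and -0.62 to -0.59 for MARCHF6:7, while the tiles called lower in the whole pool fell to 12 to 19, against 65 with all libraries. The call of MARCHF6:100 was lost without Input A or Input B (edgeR adjusted p = 0.100 and 0.0777). The call of MARCHF6:34 was lost without IP B, IP C or any 1 Input library (0.0538 to 0.118). That of MARCHF6:7 was lost without IP C or any 1 Input library (0.0538 to 0.180). MARCHF6:7 was also lost without its barcode of most reads (0.0946) and with the replicate block (0.0841).

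The other 101 tested tiles passed in neither direction, at log2 fold changes from -2.09 to 5.03. The 15 of them with an unadjusted p under 0.05 included, on the higher side, MARCHF6:3 (1.15 ± 0.38, adjusted p = 0.0754) and MARCHF6:80 (1.20 ± 0.40, adjusted p = 0.0788). On the lower side they included MARCHF6:104 (-0.85 ± 0.26, adjusted p = 0.0595) and MARCHF6:52 (-1.02 ± 0.32, adjusted p = 0.0647), all by edgeR. DESeq2 called each of these named tiles in the same direction. MARCHF6:104 was also called lower with library size alone, with the replicate block, without IP A and without IP B. MARCHF6:52 was also called lower with library size alone and without IP C, and MARCHF6:80 higher without IP B. Over all tested MARCHF6 tiles the median log2 fold change was -0.21 (quartiles -0.51 and 0.29), against -0.06 over all tested tiles of the pool (quartiles -0.38 and 0.35). A value above 0 was fitted for 41 of the 116 tiles (35.3%), against 45.4% of the pool. The IP libraries lay wholly above Input in 17 tiles (14.7%) and wholly below in 28 (24.1%), against 19.7% and 20.6% of the pool.

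Counts of calls depended on the scaling and on the libraries used. With library size alone in place of TMM the median over the pool moved by -0.23, and 10 MARCHF6 tiles were called higher (8.62%, against 12.7% of the pool) and 18 lower (15.5%, against 14.5%), in place of 11 and 4. DESeq2 called all 15 of these tiles and more, 19 higher (16.2%, against 18.6% of the pool) and 13 lower (11.1%, against 10.6%). Without IP C the counts were 17 higher (14.4%, against 16.8% of the pool) and 15 lower (12.7%, against 9.31%). The number called lower was 9 without IP A (7.69%, against 7.32% of the pool) and 7 without IP B (5.93%, against 7.20%). It was 1 without Input A (0.855%, against 0.767%), 1 without Input B (0.847%, against 0.958%) and 2 without Input C (1.72%, against 1.21%). The calls of the whole pool thus moved in these fits too, and MARCHF6:118 was called in all 6. Of the 11 tiles called higher, 9 were called in the same direction in each of 14 alternative fits, the exceptions being MARCHF6:45 and MARCHF6:75.

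Several of the largest fitted changes in either direction rested on a few barcodes. MARCHF6:83 had 0, 1606 and 134 reads in IP A, B and C, against 37, 24 and 68 in Input A, B and C, and its fitted log2 value of 5.03 ± 2.26 did not pass (edgeR adjusted p = 0.180). All of its IP reads came from 4 barcodes in IP B and 1 in IP C. It was called higher by DESeq2 (adjusted p = 0.0106) and by edgeR without IP A (5.64, adjusted p = 0.0277), and was at 1.73 without IP B (adjusted p = 0.577). MARCHF6:84 was the tested tile with the fewest Input reads. It had 386, 25 and 0 reads in IP, against 18, 22 and 31 in Input (3.67 ± 2.11, edgeR adjusted p = 0.292). With barcodes of at least 30 reads only, this tile was not among those tested. Among the alternative fits that held MARCHF6:84, it passed only without IP C, which was at 0 (edgeR adjusted p = 0.0454). Without IP A it was 0.38. At the low end MARCHF6:57 had 340, 0 and 103 reads in IP, against 864, 1822 and 1370 in Input (-2.09 ± 1.68, adjusted p = 0.466). MARCHF6:61 (-1.59 ± 1.35), MARCHF6:56 (-1.56 ± 2.20), MARCHF6:54 (-1.30 ± 0.77) and MARCHF6:103 (-1.13 ± 0.56) did not pass either. Each of the last 3 was called lower in 1 of the 6 fits that leave out a library. Without IP C, MARCHF6:54 was at -2.80 (adjusted p = 0.00411) and MARCHF6:103 at -2.06 (adjusted p = 0.00381). MARCHF6:56 was called without IP A, which held all of its IP reads (adjusted p = 0.00501), so no fold is given. In MARCHF6:61 a single barcode held 838 of the 841 IP reads. It was called lower when that barcode was dropped (adjusted p = 0.00616), but only 3 IP reads were then left, and no fold is given for it.

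The spread between libraries followed the Input level of a tile. In the 62 tiles with at least 300 CPM in Input, the median coefficient of variation was 23.1% between IP libraries and 6.01% between Input libraries. In the 31 tiles of 100 to 300 CPM it was 42.5% in IP and 11.4% in Input, and in the 23 tiles under 100 CPM it was 71.2% in IP and 22.2% in Input. The median standard error of the log2 fold change was 0.20, 0.38 and 0.64 in these classes, from most to least abundant. All 4 tiles called lower were in the most abundant class, which also held 6 of the 11 called higher. A change of the size seen in MARCHF6:7 was thus not detectable in most scarce tiles.

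The 7 untested tiles were MARCHF6:47 and 48, 62 to 64, and 73 and 74, and 4 of them (48, 62, 63 and 64) had no read in any library. MARCHF6:47 had 0 reads in each IP library, against 21, 1 and 38 in Input A, B and C, which came from 4, 1 and 4 barcodes. With 3 reads over the IP group as the floor it was at least 9.04-fold lower, and at least 5.28-fold lower without Input C. These bounds cover counting error only and not the loss of whole barcodes from IP. MARCHF6:73 had 0, 0 and 55 reads in IP, against 0, 1 and 8 in Input, and MARCHF6:74 had 260, 0 and 0 reads in IP, against 4, 3 and 26 in Input, each from 1 barcode in 1 IP library. The tiles before the gap at 62 were also scarce in Input. The window of tiles 56 to 60 was the lowest of the 100 at -2.93, but its SD over the IP libraries was 1.58 and none of its tiles was called. The fitted log2 fold changes of these tiles ran from -2.09 to -0.63, all above the window value. A window averages log2 levels of single libraries, and several of these tiles had few or no reads in an IP library. The window was at -3.35 with a prior count of 0.5 and at -2.38 with a prior count of 10. The next lowest window that shares no tile with it, tiles 51 to 55, was at -0.95 (SD 0.31), with none called.

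Neighbouring tiles resembled each other at a distance of 1 number and not further. Over 112 pairs of consecutive tested tiles the log2 fold changes had a Pearson r of 0.41 and a Spearman rho of 0.34. At a distance of 2 numbers r was -0.04 over 108 pairs, and at a distance of 3 it was 0.00 over 106 pairs. Without tiles 40 and 41, r between consecutive tiles was 0.32 and rho 0.32 over 109 pairs. The log2 Input levels of consecutive tiles had an r of 0.54. These are descriptions across tiles of the same 6 libraries, which share depth and scaling, and neighbours may share sequence. Between libraries, the log2 CPM of the 116 tiles correlated at r = 0.70 to 0.83 among IP libraries and 0.99 among Input libraries.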

How the data were processed

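The authors deposited raw read counts per tile and barcode for each pool, with no normalization, per the file headers and the values, which were whole numbers with differing column totals. How reads were assigned to tiles is not given in the sources used here. No molecular identifiers are mentioned, so floors cover counting error only. The 6 PUM2 columns are lettered A to C while sample titles are numbered, so each column was assigned to a group but not to a numbered replicate. The 22 barcode counts of a tile were added up, low tiles were removed by filterByExpr, TMM scaling was applied, and the whole pool was tested with the robust quasi-likelihood F test of edgeR 4.0.16 in R 4.3.3, with Benjamini-Hochberg adjustment and a threshold of 0.05. The fit was tested on simulated data with the same dispersion in both groups, so that test did not cover the wider spread of the IP libraries. A standard error is the size of the log2 fold change over the root of its F. Windows used log2 CPM with a prior count of 2. Barcode differences added 0.01 CPM. Within-group library pairs differed by a chi-square of 71.6 to 666 per degree of freedom over tiles, so none was a copy of another. Alternatives included DESeq2 1.42.0. Named tiles were all called tiles, the 5 highest and 5 lowest, neighbours of the 5 highest called, the tiles of most and fewest Input reads and those at 0 in a group. Tiles 3, 52, 80 and 104 and the counts of barcodes read were picked after their values were seen. The members, lists and alternatives were chosen with earlier results of these data known. The other 4 pools hold no MARCHF6 tile and were not used here.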

Additional observations from a re-analysis of the deposited data

How the results depend on the processing

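Of 405 refits of single named tiles (29 tiles), 364 kept direction and side of the threshold, 23 lost a call, 12 gained one and 6 changed sign, and none of the sign changes was in a called tile. Tiles called higher numbered 11 with RLE factors, without a filter, with a mean count of at least 50 and with barcodes of at least 30 reads. That was 9.24% to 9.57%, against 13.9% to 14.4% of the pool. Tiles called higher numbered 10 with library size alone (8.62%, against 12.7%) and 19 by DESeq2 (16.2%, against 18.6%). They numbered 12 when the most-read barcode of every tile was dropped (10.3%, against 14.3%). Tiles called lower numbered 18 with library size alone (15.5%, against 14.5%) and 13 by DESeq2 (11.1%, against 10.6%). At a log2 fold change of at least 1, 8 tiles were higher and 1 was lower, and the share of the pool at that setting was not counted. With 1 test per barcode, 40 barcodes were higher and 487 lower; this gives no value for a tile. Leaving out 1 library gave 9 to 17 tiles higher and 1 to 15 lower, against 179 to 264 and 12 to 146 in the whole pool. Sign changed for MARCHF6:31 (-0.21 with library size alone, -0.041 to 0.103 leaving out 1 library), MARCHF6:97 (-0.80 to 0.23) and MARCHF6:91 (-0.64 to 0.24). The cause of these shifts was not tested.

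Each letter is shared by an IP and an Input column, as each replicate number is by an IP and an Input title, but neither is stated to pair libraries. Deviations of IP and Input libraries of the same letter correlated at -0.04, 0.01 and -0.02 over 1563 tiles, with 1 of 3 IP libraries closest to the Input of its letter. With the letter as a replicate block, 10 MARCHF6 tiles were higher (8.62%, against 13.8% of the pool) and 8 lower (6.90%, against 5.05%). Windows kept their sign with prior counts of 0.5 and 10 and with 3 tiles in place of 5, where tiles 93 to 97 moved to 1.43, against 0.66, and tiles 86 to 90 to 0.28, against 0.61.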
